A study of Mus musculus with 9 samples.

Results

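A set of 10 genes of the contractile actin cytoskeleton were followed across neural stem cell cultures in which the histone demethylase gene Phf2 had been lowered. They are Acta2, Tagln, Tagln2, Cnn1, Cnn2, Tpm1, Tpm2, Myl9, Actn1 and Flna, taken by name from the 54232 gene rows of the deposited table. The rule is a list of names, drawn up with earlier results of these data known. RNA-seq was run on primary mouse embryonic neural stem cells, labelled as from the subventricular zone of the brain and grown on laminin (5 µg/mL) in a proliferation medium with FGF at 10 ng/mL and EGF at 20 ng/mL. The cells had received a non-targeting short hairpin RNA (shNT, the control) or 1 of 2 hairpins against Phf2, sh900 and sh902, and RNA was taken 3 days later. Each group held 3 libraries, 9 in all: 1 whose title carries no date, 1 dated 30 August and 1 dated 3 September. The labels do not say what event a date refers to, nor is it stated that replicates came from separate cultures or animals. The p-values therefore rest on the variation among these libraries alone, part or all of which may be technical. The hairpins share 1 target and 1 set of controls.

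Contractile actin is built from actin filaments, the tropomyosins that lie along them, the calponins and transgelins that bind them, the myosin II motor with its light chains, and crosslinkers such as the actinins and filamins. Many of these genes are transcribed by serum response factor (SRF), which binds the CArG box in DNA. Its cofactors of the myocardin-related family (MRTF) are held in the cytoplasm by monomeric actin, and TGF-beta is known to raise the programme in many cell types. In the brain the smooth muscle members are best known from vessel walls, while the cytoskeletal forms are made in most cells.

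The libraries summed to between 23212472 and 32392496 estimated counts each. The low-count filter kept 17602 genes, 9 of the 10 members among them. Tpm2, at 3 to 14 counts per library, did not pass. Levels are given in CPM, the usual count scale relative to the library total, here with TMM factors, and values in threes are for the undated, 30 August and 3 September libraries in that order. Phf2 was lower in every hairpin library (14.9 to 28.1 CPM) than in every control library (48.6 to 56.2 CPM). Libraries of the same date label deviated from their group means together, so values are given by label. All 10 markers of neural stem cells that were examined, such as Sox2, Nes and Fabp7, were at 1 CPM or more in every library.

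The DNA just before the start of each gene was searched for the CArG box, because SRF is the shared regulator these genes are known for. The box is a pair of C, 6 bases that are A or T, and a pair of G, and its reverse complement has the same form, so a match on either strand is the same match. Promoter sequences from RefSeq (GRCm38.p6, 250 bases before to 50 after the start) were found for 9 members, Tagln being the member without one. An exact box was found in 2 of these 9 windows, Cnn2 and Myl9, and a box with up to 1 mismatch in 5, with Acta2, Flna and Tpm1 added. Over all 32851 promoter windows the shares were 1.63% and 21.1%. A match is a description of the letters and not a measured binding site, and no match says only that the letters are not in this window. The boxes are shown on the gene's own strand with 10 bases on each side, with the box in capitals. The 3 boxes of Srf itself are included because Srf is measured below.
Cnn2, chr10:79988534-79988563, plus strand, upstream, exact: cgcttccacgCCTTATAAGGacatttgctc
Myl9, chr2:156775293-156775322, plus strand, upstream, exact: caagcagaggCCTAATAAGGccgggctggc
Myl9, chr2:156775355-156775384, plus strand, upstream, 1 mismatch: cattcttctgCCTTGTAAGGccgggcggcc
Acta2, chr19:34255438-34255467, minus strand, in an annotated 5′ exon, 1 mismatch: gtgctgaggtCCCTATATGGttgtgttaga
Acta2, chr19:34255388-34255417, minus strand, in an annotated 5′ exon, 1 mismatch: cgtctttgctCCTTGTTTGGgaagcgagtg
Tpm1, chr9:67049415-67049444, minus strand, upstream, 1 mismatch: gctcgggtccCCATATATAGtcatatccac
Tpm1, chr9:67049274-67049303, minus strand, in an annotated 5′ exon, 1 mismatch: acaagcttttCCAAAAAAGTattggctgtc
Flna, chrX:74246559-74246588, minus strand, in an annotated intron, 1 mismatch: ctttcgcataCATTTAAAGGgctcgctctt
Srf, chr17:46556225-46556254, minus strand, upstream, exact: ctggggctcgCCATATAAGGagcggcctcg
Srf, chr17:46556205-46556234, minus strand, upstream, exact: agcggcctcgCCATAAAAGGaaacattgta
Srf, chr17:46556182-46556211, minus strand, upstream, 1 mismatch: cattgtatctCTTTATATGGgggggggaag
The annotated exons and intron are those of GENCODE M21, in which some transcripts start before the RefSeq start. For the 3 boxes of Srf, upstream means before the RefSeq start only, since they were not compared with the GENCODE models.

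Per length, the crosslinker Flna was the most abundant member. Its level in CPM per kilobase of exon averaged 92.8 (65.7 to 134) over the 9 libraries, the range in brackets. Acta2 followed at 23.7 (3.02 to 67.2), Tagln2 at 16.3 (2.56 to 38.8), Tpm1 at 15.7 (7.68 to 25.7) and Myl9 at 14.8 (6.56 to 27.3). Cnn2 averaged 10.4 (6.03 to 16.5), Actn1 7.52 (4.24 to 10.5) and Tagln 3.999 (0.577 to 12.5). The lowest levels were those of Cnn1 at 0.251 (0.0983 to 0.844) and Tpm2 at 0.0763 (0.0314 to 0.183) CPM per kilobase. The ranges of every pair of neighbours in this order overlapped across the libraries. Acta2 spread the widest among the 5 most abundant members, and Flna the least. Tpm1 has 21 annotated transcripts, and with the longest transcript as its length it averaged 35.2 and passed Acta2 (25.6).

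**Figure D1:**
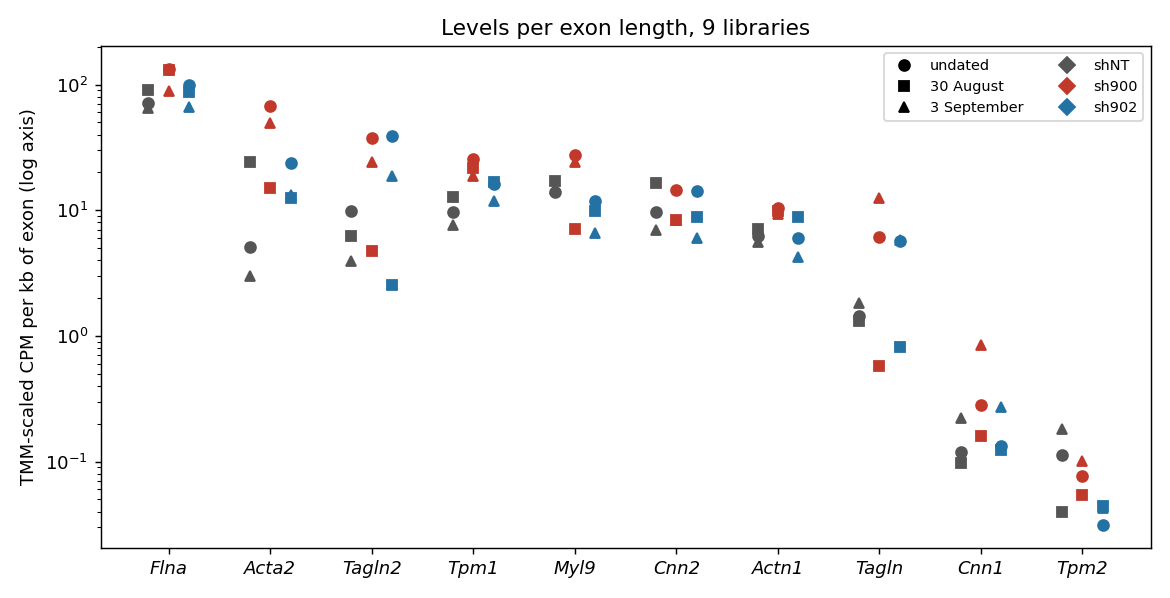
Levels of the 10 members in CPM per kilobase of exon, on a log axis, in each of the 9 libraries; colours mark the hairpin and symbols the date label. Flna lies highest and Cnn1 and Tpm2 lowest, and Acta2, Tagln and Tagln2 spread over a wide range.

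Acta2, the smooth muscle alpha actin (ENSMUSG00000035783, chromosome 19, 34241090 to 34255590, minus strand, GRCm38), differed from the control in opposite directions at different date labels. With shNT it stood at 11.2 CPM in the undated library, 52.9 in the 30 August library and 6.63 in the 3 September library. With sh900 the levels were 148, 33.2 and 108 CPM, and with sh902 they were 52.0, 27.3 and 29.2 CPM. Both hairpins lay above the control of the same label in the undated and 3 September libraries, and below it on 30 August, where the control itself was the highest of its group. The ratio to that control was 13.1-fold, 0.629-fold and 16.2-fold with sh900, and 4.62-fold, 0.517-fold and 4.37-fold with sh902. The groups overlapped. Averaged over the hairpins, the log2 fold change was 1.32 ± 0.72 (SE) by edgeR's quasi-likelihood test, with a Benjamini-Hochberg adjusted p of 0.383, in the model that leaves the date label out. With the label as a replicate block it was 1.51 ± 0.96 (adjusted p = 0.354). The change was therefore smaller than the spread between libraries could resolve in either fit. In bulk RNA such as this, fewer cells expressing a gene and less RNA per cell cannot be told apart.

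Tagln (transgelin, ENSMUSG00000032085, chromosome 9, 45929619 to 45936058, minus strand), an actin-binding protein of smooth muscle, showed the same arrangement of labels. Its control levels were close together at 2.84, 2.61 and 3.62 CPM, against 12.1, 1.15 and 24.8 CPM with sh900 and 11.2, 1.62 and 11.5 CPM with sh902. The 30 August hairpin libraries lay under all 3 controls, and the other 4 lay above every control. The log2 ratios to the control of the same label were 2.07, -1.14 and 2.75 with sh900 and 1.95, -0.66 and 1.65 with sh902. Averaged over both hairpins the edgeR log2 fold change was 1.75 ± 0.90 (adjusted p = 0.364) without the block and 1.08 ± 0.70 (adjusted p = 0.359) with it. Tagln overlaps Pcsk7 and Gm48529 on the opposite strand, and the protocol does not say that strand was kept, so reads from the overlap cannot be assigned with certainty.

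Tagln2 (ENSMUSG00000026547, chromosome 1, 172500047 to 172507380, plus strand), the transgelin of non-muscle cells, was the third member with this pattern. The controls held 20.7, 12.98 and 8.26 CPM. With sh900 Tagln2 was at 77.9, 9.90 and 50.4 CPM and with sh902 at 80.8, 5.33 and 39.1 CPM. The 4 hairpin libraries of the undated and 3 September labels were all above every control, and both 30 August libraries were below the control of their label. The mean log2 fold change was 1.65 ± 0.87 (edgeR adjusted p = 0.372) and, blocked, 1.04 ± 0.70 (adjusted p = 0.382). Of the 9 measured members these 3, Acta2, Tagln and Tagln2, lay below the control with both hairpins on 30 August and above it with both at the other labels. Among all 17602 genes tested 5.94% did so. This arrangement was not a planned comparison and follows the values of these 3 genes themselves, so the share is a description only.

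The blocked values of these 3 genes depended on which control library was in the fit. Without the 30 August control the log2 fold changes averaged over the hairpins were 3.05 for Acta2 (edgeR adjusted p = 0.00317), 2.16 for Tagln (adjusted p = 0.00469) and 2.18 for Tagln2 (adjusted p = 0.00143), and 4 members were called in place of 1. Leaving out that library removes the 30 August label from this contrast, because the label then holds hairpin libraries alone. Without the 3 September control the values were 0.69 for Acta2, 0.46 for Tagln and 0.39 for Tagln2, and without the undated control 0.73, 0.56 and 0.52, with edgeR adjusted p from 0.662 to 0.811 over these 6 values. Each of the 3 genes passed in 1 of the 9 fits that left out a library, the one without the 30 August control. That control was the highest of its group for Acta2, the lowest for Tagln and between the others for Tagln2.

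**Figure D2:**
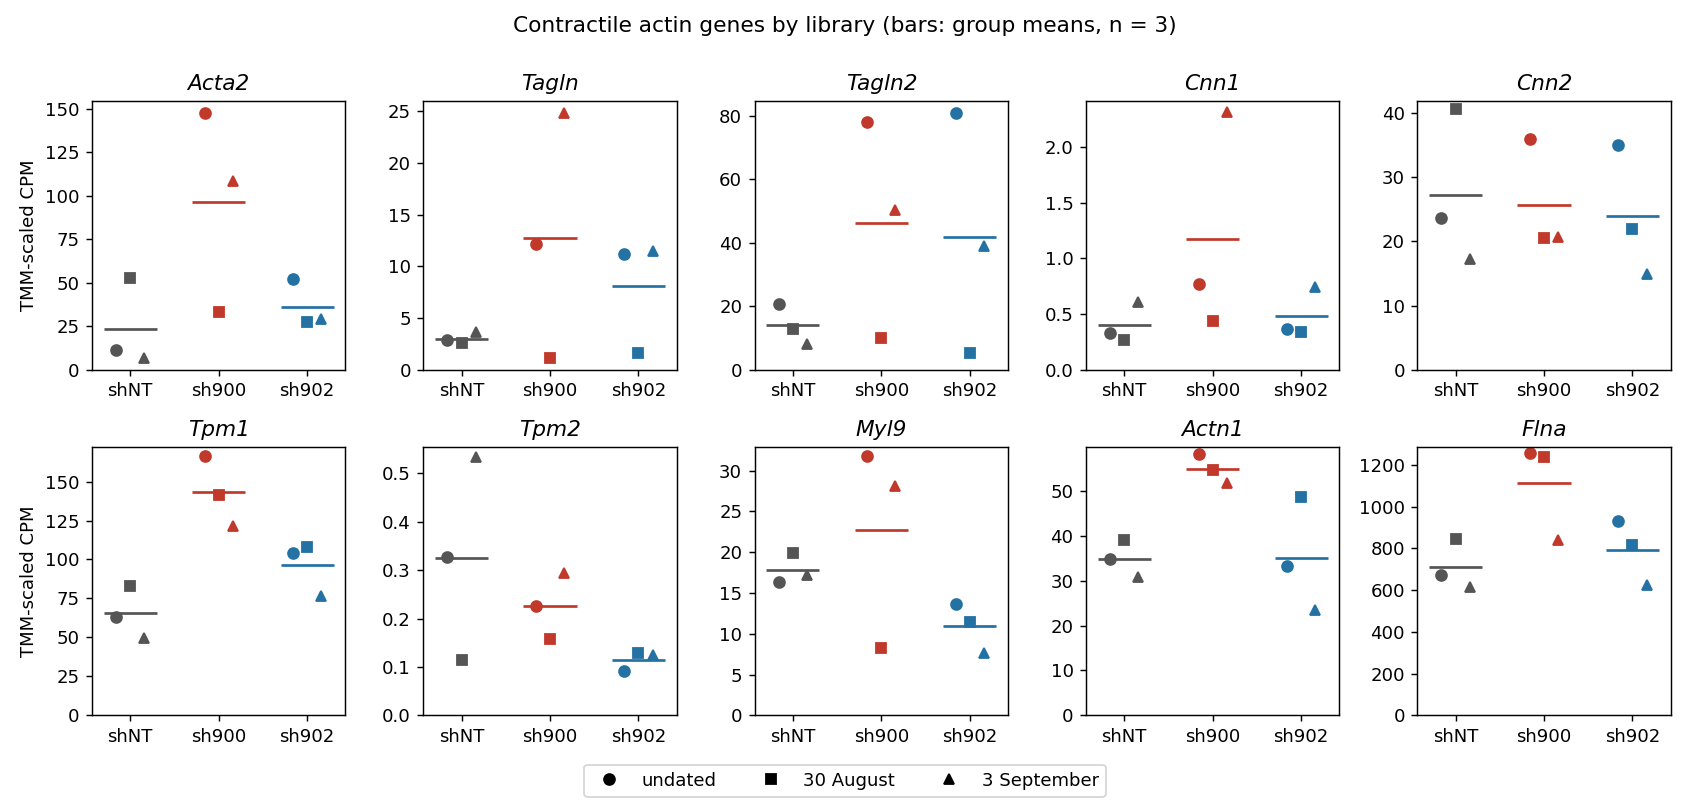
TMM-scaled CPM of each member in the 3 groups, on linear axes from 0; points are libraries, symbols the date label and bars the group means (n = 3). Tpm1 and Actn1 with sh900 lie above every control, while the hairpin libraries of Acta2, Tagln and Tagln2 split by date label.

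Tpm1, tropomyosin 1 (ENSMUSG00000032366, chromosome 9, 67022590 to 67049406, minus strand), which lies along the actin filament and governs access of myosin to it, rose with both hairpins once the date label was in the model. The controls stood at 63.3 CPM in the undated library, 83.1 in the 30 August library and 49.8 in the 3 September library. With sh900 the levels were 167, 142 and 121 CPM and with sh902 104, 108 and 76.4 CPM. All 6 hairpin libraries lay above the control of their label, and all 3 sh900 libraries lay above every control, while the 3 September sh902 library lay under the 30 August control. Group means were 65.4 ± 16.7 CPM with shNT, 143 ± 22.6 with sh900 and 96.2 ± 17.2 with sh902 (SD, n = 3 each). The blocked log2 fold change was 0.86 ± 0.13 for the mean of both hairpins (SE, edgeR adjusted p = 0.0095), 1.15 ± 0.15 for sh900 (adjusted p = 0.00777) and 0.56 ± 0.15 for sh902 (adjusted p = 0.0463). Without the block the sizes were nearly the same, 0.84 ± 0.20, 1.13 ± 0.23 and 0.56 ± 0.23, but none passed (adjusted p = 0.194, 0.134 and 0.295). The call for the mean was lost without the undated control library (adjusted p = 0.0701), and that for sh900 without the undated sh900 library (adjusted p = 0.0575). The call for sh902 passed in only 1 of the 9 fits that left out a library, the one without the 30 August control.

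Tpm2, the beta tropomyosin of muscle (ENSMUSG00000028464, chromosome 4, 43514711 to 43523765, minus strand), was near the floor of the data. Its levels were 0.328, 0.115 and 0.533 CPM with shNT, 0.225, 0.158 and 0.293 CPM with sh900 and 0.0913, 0.128 and 0.124 CPM with sh902, from 3 to 14 counts per library. No difference was detectable at this depth. Of its paralogs outside the members, Tpm3 held 155, 292 and 116.9 CPM with shNT, 310.1, 407 and 187 CPM with sh900 and 259, 300.2 and 205 CPM with sh902. In the blocked fit Tpm3 rose by 0.62 ± 0.16 on the log2 scale (edgeR adjusted p = 0.0418). RSEM divides reads that match several tropomyosins by a model, so values for the family are less certain than those of genes with no close copy.

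The calponins, actin-binding proteins that restrain myosin in smooth muscle (Cnn1) or act in many cell types (Cnn2), were not called in any hairpin contrast. Cnn1 (ENSMUSG00000001349, chromosome 9, 22099216 to 22109630, plus strand) was at 0.328, 0.269 and 0.609 CPM with shNT, 0.771, 0.435 and 2.31 CPM with sh900 and 0.365, 0.341 and 0.746 CPM with sh902, which is 7 to 63 counts. Like Tpm1 it lay above the control of its label in all 6 hairpin libraries, and these 2 were the only members to do so against 12.9% of all genes tested. With sh902 this rested on 12, 8 and 18 counts against 9, 7 and 16 in the controls. Cnn1 passed the low-count filter only through the sh900 group, where its mean was highest, so its direction with sh900 is a description only. Its blocked log2 fold change was 1.36 ± 0.41 with sh900 (edgeR adjusted p = 0.0762) and 0.26 ± 0.43 with sh902 (adjusted p = 0.743). Cnn2 (ENSMUSG00000004665, chromosome 10, 79988584 to 79996062, plus strand) was more abundant, at 23.7, 40.5 and 17.2 CPM with shNT, 35.9, 20.5 and 20.6 CPM with sh900 and 34.9, 21.9 and 14.8 CPM with sh902. Its 3 groups covered nearly the same range, and the 30 August control was again the highest library. The mean log2 fold change of Cnn2 was -0.13 ± 0.36 (adjusted p = 0.872), and it became positive, at 0.28, when the 30 August control was left out.

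Myl9, a regulatory light chain of myosin II (ENSMUSG00000067818, chromosome 2, 156775420 to 156781658, plus strand), had fitted values of opposite sign with the hairpins. The controls were close together at 16.4, 19.9 and 17.2 CPM. With sh900 it was at 31.7, 8.31 and 28.1 CPM, above the control except on 30 August, and with sh902 it was at 13.7, 11.4 and 7.63 CPM. Every sh902 library lay below every control, which was so of no other member and of 10.8% of all genes tested. The blocked log2 fold changes were 0.25 ± 0.46 with sh900 (edgeR adjusted p = 0.768) and -0.74 ± 0.45 with sh902 (adjusted p = 0.328), and neither passed. Their difference was -0.99 ± 0.46 (adjusted p = 0.262).

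Actn1 and Flna crosslink filaments, Actn1 (alpha-actinin 1, ENSMUSG00000015143, chromosome 12, 80167547 to 80260371, minus strand) into parallel bundles and Flna (filamin A, ENSMUSG00000031328, chromosome X, 74223461 to 74249820, minus strand) into orthogonal networks. Actn1 stood at 34.8, 39.0 and 30.8 CPM with shNT, 58.1, 54.7 and 51.7 CPM with sh900 and 33.3, 48.6 and 23.5 CPM with sh902. Every sh900 library was above every control, as for Tpm1 and for 8.6% of all genes, whereas sh902 overlapped the controls. With library totals in place of TMM factors the same held for Flna as well. The blocked log2 fold change of Actn1 with sh900 was 0.67 ± 0.19 (edgeR adjusted p = 0.0631), and with sh902 it was -0.03 ± 0.19 (adjusted p = 0.937). Actn1 overlaps the gene models Gm47765, Gm47766 and Gm47767. Flna held 675, 847 and 617 CPM with shNT, 1256, 1238 and 840.2 CPM with sh900 and 933, 815 and 625 CPM with sh902. Its sh900 libraries lay above the control of their label each time, and sh902 lay close to it on both dates. With sh900 Flna rose by 0.62 ± 0.15 on the log2 scale in the blocked fit (adjusted p = 0.0436), a call made in 2 of the 9 fits that left out a library, those without the 30 August control and without the 30 August sh902 library. With sh902 the value was 0.14 ± 0.15 (adjusted p = 0.601).

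**Figure D3:**
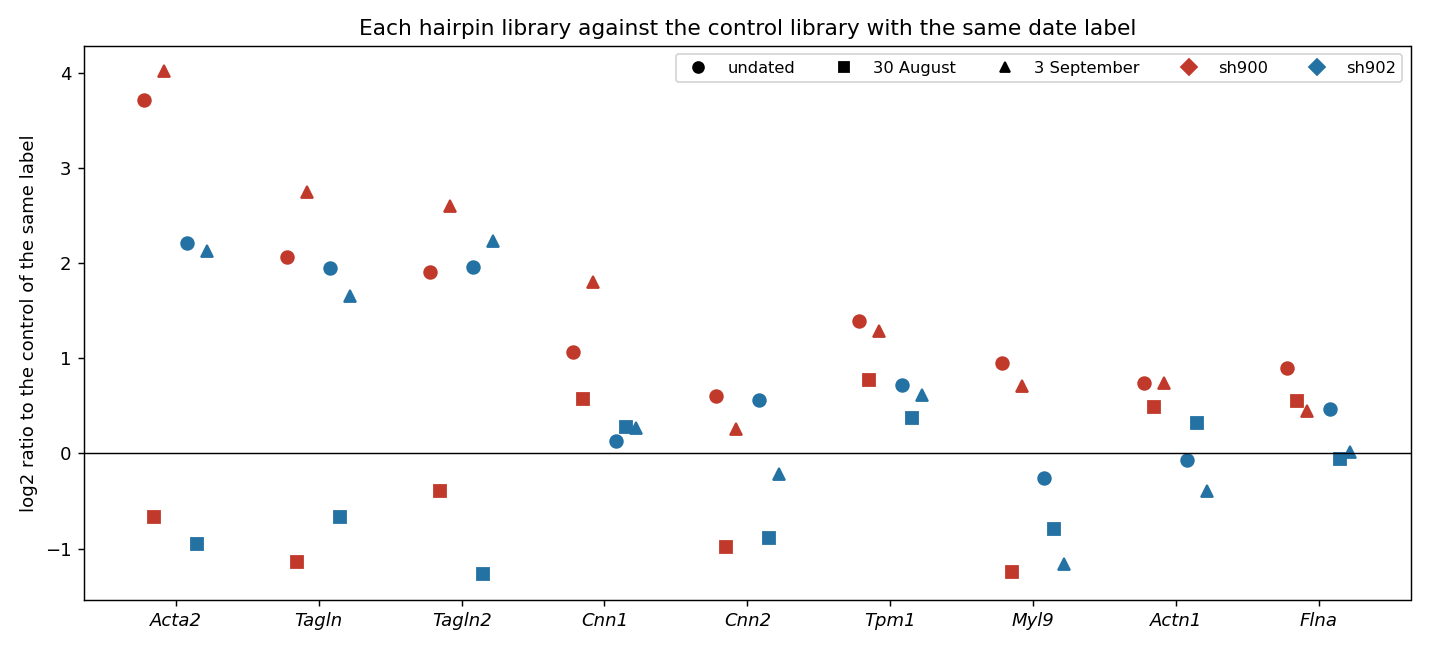
Log2 ratio of each hairpin library to the control library of the same date label, for the 9 measured members; colours mark the hairpin and symbols the date label. The 30 August squares of Acta2, Tagln and Tagln2 lie below 0 and the other symbols well above, while all 6 symbols of Tpm1 lie above 0.

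Counted together, few members passed. With the date label left out of the model, edgeR called 0 of the 9 measured members and 0% of the 17602 genes for the mean of both hairpins, for sh900, for sh902 and for the difference between them. At an unadjusted p under 0.05 the members numbered 1 (Tpm1), 4, 1 and 3, against 16%, 14.7%, 15.8% and 14.4% of all genes. On the same design DESeq2 called Tpm1 alone for the mean (adjusted p = 0.0128, against 4.25% of all genes) and for sh900 (adjusted p = 0.0018, against 4.49%), and limma-voom called no member. With the block, 1 member rose for the mean (Tpm1), against 6.08% of all genes higher and 11.7% called in either direction. For sh900 there were 2 (Tpm1 and Flna), against 5.39% higher, 3.45% lower and 8.85% in all, and for sh902 1 (Tpm1), against 5.12% and 10.5%. No member was called lower, and a count of 1 in 9 is close to the share over all genes. The median blocked log2 fold change of the 9 members was 0.81 for the mean, 1.15 for sh900 and 0.26 for sh902, beside -0.02, -0.02 and -0.01 over all genes. The medians for the mean and for sh902 are the values of Cnn1 itself. Because Cnn1 passed the low-count filter only through the sh900 group, these medians are a description only. Exact permutation of the libraries (two-sided, log2 CPM, 6 with a hairpin and 3 controls, 84 splits) gave p = 0.0357 for Tpm1, p = 0.0952 for Acta2 and p from 0.155 to 0.726 for the other 7. For 0 members did every hairpin library lie above every control, against 3.38% of all genes, and for 0 did every sh900 library lie below every control, against 8.79%. The 9 permutation values are unadjusted, 0.0119 is the smallest these splits allow, and the splits ignore the date label. With the control exchanged only among the libraries of its label (27 arrangements, smallest p 0.037) the exact permutation p was 0.0741 for Tpm1 and 0.111 to 0.667 for the other 8.

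**Figure D4:**
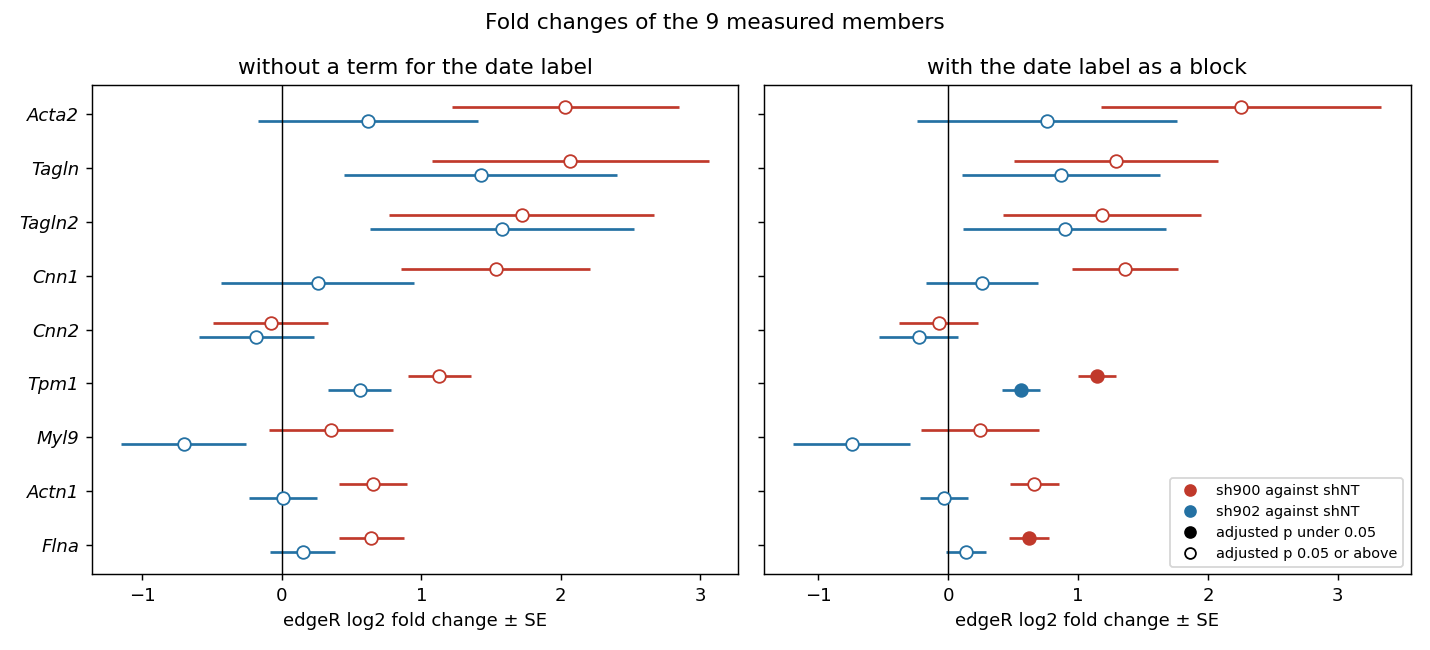
edgeR log2 fold changes with their standard errors for sh900 and sh902 against shNT in the 9 measured members, without the date label in the model (left) and with it as a block (right); filled points passed an adjusted p of 0.05. No point is filled on the left, and on the right Tpm1 is filled for both hairpins and Flna for sh900.

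The hairpins were compared with each other directly, and sh902 gave the lower value for most members. All 9 measured members had a negative fitted difference (sh902 minus sh900) in the blocked fit, with a median of -0.58 beside 0.01 over all genes. The share of all genes with a negative difference was not counted. Of the 9 members 0 passed, against 1.74% of all genes called higher, 2.48% lower and 4.22% in either direction. The lowest adjusted p values by edgeR's quasi-likelihood test were those of Tpm1 (-0.58 ± 0.15, adjusted p = 0.0635) and Actn1 (-0.70 ± 0.19, adjusted p = 0.0774). Every sh902 library was below every sh900 library for these 2 members, as for 11.3% of all genes. At each of the 3 labels sh902 was below sh900 for Acta2, Cnn1, Tpm1, Actn1 and Flna, 5 of 9, against 26.6% of all genes. At an unadjusted p under 0.05 the blocked fit had 4 members, all lower with sh902, against 22.7% of all genes in either direction and 13% lower. These 4 were Cnn1, Tpm1, Actn1 and Flna. Cnn1 passed the low-count filter only through the sh900 group, which favours a lower value with sh902. Its place in this count and in those above is a description only. DESeq2 with the block called 2 of the 4, Tpm1 and Actn1, against 9.98% of all genes. When only the 6 hairpin libraries entered the blocked fit, 3 were called, Acta2, Tpm1 and Flna, with log2 differences of -1.24, -0.57 and -0.48, against 14.7% of all genes. Phf2 itself was higher with sh902 than with sh900 at each label, with a blocked log2 difference of 0.22 ± 0.19 (adjusted p = 0.55).

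The date label itself moved some members. Between the 30 August and 3 September libraries, at equal hairpin, 20.5% of all genes were called, 10.1% higher and 10.4% lower. Of the 9 members Cnn1 was lower on 30 August (-1.63 ± 0.42, edgeR adjusted p = 0.0293) and Tpm1 higher (0.49 ± 0.15, adjusted p = 0.0474). Tagln stood at -2.41 ± 0.80 (adjusted p = 0.0792) and passed with DESeq2 and limma-voom. Markers of fibroblasts and meningeal cells also moved with the date: 5 of 8 were called lower on 30 August and 1 higher, with a median log2 difference of -4.37, and Col3a1 was at 0.365, 0.0384 and 15.99 CPM in the controls. Of these markers Col1a2, Dcn and Lum passed the low-count filter only through the 3 September libraries, where they were highest. Their place in this count and in the median is therefore a description only. The part of the fibroblast and meningeal markers in the members' date values was not tested. Whether the hairpin effect differed between the dates was asked with both hairpins as 1 arm, so that the spread comes from the 2 hairpins of a label. This difference, 30 August minus 3 September, was -4.18 ± 1.27 for Acta2 (adjusted p = 0.361), -3.24 ± 0.76 for Tagln (adjusted p = 0.175) and -3.20 ± 0.57 for Tagln2 (adjusted p = 0.0698). By edgeR 0 of the 9 members passed, against 1.39% of all genes in either direction (0.017% higher and 1.37% lower), and 4 had an unadjusted p under 0.05, against 8% of all genes. DESeq2 called these 3 genes (adjusted p = 0.00726, 0.00455 and 4.26e-05), against 3.33% of all genes, and limma-voom none. For Tpm1 the difference was -0.40 ± 0.58 (adjusted p = 0.975).

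The genes around the members were taken from lists of close relatives, SRF and its cofactors, other SRF or MRTF targets and the TGF-beta pathway. Without the block edgeR called 0 genes of any list, and counts here are from the blocked fit for the mean of both hairpins, to be read beside 6.08% of all genes higher and 5.59% lower. Of 14 measured relatives 4 were called higher and 0 lower. Among the 4 is Actg2, which had 0 counts in every control and passed the filter only through hairpin libraries. Its call is therefore not to be read beside that share, and it is described in the next paragraph. The others were the crosslinker Actn4 (0.92 ± 0.13, adjusted p = 0.00731), Tpm3 and the myosin light chain Myl6 (0.42 ± 0.11, adjusted p = 0.0434). Actn4 was called in each of the 9 fits that left out a library, and the count of relatives, Actg2 included where called, ranged from 1 to 6 over them. The calls of Tpm3 and Myl6 were made in 2 of the 9 fits. Cnn3, the calponin of non-muscle cells, was at -0.24 ± 0.13 (adjusted p = 0.255). Actb, the main cytoskeletal actin, was not called. It held 3140.4, 3607 and 3368 CPM with shNT, 3834, 3537 and 3178 CPM with sh900 and 3300.2, 2828 and 2931 CPM with sh902.

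Actg2, the gamma actin of enteric smooth muscle, had 0 counts in all 3 controls. It had 211 counts in the undated sh900 library and 62 in that of 3 September, but 0 in that of 30 August. With sh902 the counts were 14, 2 and 5. Its blocked call was made in 3 of the 9 leave-one-out fits. Set against a floor of 3 counts in the control library of the same label, Actg2 was at least 62.0-fold higher in the undated sh900 library, at least 19.9-fold higher in the 3 September sh900 library and at least 3.89-fold higher in the undated sh902 library. As for Acta2, the 30 August hairpin libraries held no detectable excess over their control, where 3 counts correspond to 0.115 CPM. Smooth muscle actins share much of their coding sequence, and RSEM may divide reads between them.

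Srf rose with both hairpins. It held 55.7, 52.2 and 50.4 CPM with shNT, 90.8, 72.9 and 69.1 CPM with sh900 and 98.7, 82.4 and 63.3 CPM with sh902. Every hairpin library lay above every control, as for 3.38% of all genes tested. The blocked log2 fold change was 0.57 ± 0.12 (edgeR adjusted p = 0.0224), and it also passed for sh900 (0.54 ± 0.13, adjusted p = 0.0445) and for sh902 (0.60 ± 0.13, adjusted p = 0.0298). The call for the mean was lost without any of the undated libraries, the 3 September control or the 3 September sh900 library, and those for sh900 and sh902 were each made in 2 of the 9 leave-one-out fits. Of its cofactors the MRTF genes gave 0.04 ± 0.16 for Mrtfa (adjusted p = 0.916) and 0.66 ± 0.23 for Mrtfb (adjusted p = 0.108). Mrtfb had 38.4, 116 and 32.4 CPM in the controls, so its 30 August control was again far above the others. Of the ETS cofactors Elk4 fell by 0.59 on the log2 scale (adjusted p = 0.0489, called in 0 of the 9 leave-one-out fits), while Elk1 (0.14 ± 0.13) and Elk3 (0.32 ± 0.16) did not pass. Of the 6 measured genes of this list 1 rose and 1 fell, and Myocd did not pass the expression filter.

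Among 16 measured SRF or MRTF targets outside the members, 3 rose and 1 fell. Those that rose were Myh9, the heavy chain of non-muscle myosin IIA (1.10 ± 0.19, edgeR adjusted p = 0.0131), the fibronectin receptor subunit Itga5 (1.03 ± 0.21, adjusted p = 0.0208) and Pdlim7 (0.91 ± 0.19, adjusted p = 0.0225). The actin-bundling gene Lima1 fell by 0.59 on the log2 scale (adjusted p = 0.0375). Myh9 held 488, 749.9 and 244 CPM with shNT, 1621, 1406 and 722 CPM with sh900 and 896, 919.8 and 593 CPM with sh902. It lay above the control of the same label in all 6 hairpin libraries, as for 12.9% of all genes, and its call was lost without the undated or the 3 September control. Ccn2, which encodes connective tissue growth factor, had 1.60, 7.30 and 2.63 CPM with shNT, 55.1, 23.5 and 39.4 CPM with sh900 and 10.3, 10.6 and 5.26 CPM with sh902. It rose with sh900 (3.51 ± 0.66, adjusted p = 0.0309), and for the mean of both hairpins it stood just outside the threshold (2.37 ± 0.59, adjusted p = 0.0525). The sh900 call of Ccn2 was made in 2 of the 9 leave-one-out fits, that of Pdlim7 in 4 and those of Itga5 and Lima1 in 3. Over these fits the count of this list that rose ranged from 0 to 6. Pdlim7 and Itga5, and the genes of the next paragraph, were named after their values were seen.

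Within the same list some genes differed between the hairpins. In the blocked fit 4 of its 16 measured genes were lower with sh902 than with sh900 and 0 higher, beside 2.48% of all genes lower. They were the focal adhesion gene Vcl, vinculin (-1.44 ± 0.16, edgeR adjusted p = 0.0184), the caldesmon gene Cald1 (-1.30 ± 0.17, adjusted p = 0.0201), Tgfb1i1 (-1.39 ± 0.24, adjusted p = 0.0268) and Csrp1 (-1.08 ± 0.18, adjusted p = 0.0259). Vcl held 105, 164 and 86.9 CPM with shNT, 248, 387 and 150.2 CPM with sh900 and 95.2, 113 and 67.8 CPM with sh902. It was above the control at each label with sh900 and below it at each label with sh902, and the same held for Cald1 and Tgfb1i1. The share of all genes with this arrangement was not counted. For Vcl and Cald1 the difference was lost without the undated or 30 August library of either hairpin and called in the other 5 leave-one-out fits, for Csrp1 in 4 and for Tgfb1i1 in 3, and over those fits the count ranged from 0 to 6.

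Of 10 TGF-beta pathway genes 3 rose and 1 fell. The type II receptor Tgfbr2 held 39.5, 49.7 and 13.4 CPM with shNT, 328, 189.9 and 92.3 CPM with sh900 and 166, 125 and 73.4 CPM with sh902, every hairpin library being above every control, as for 3.38% of all genes. It rose by 2.25 ± 0.23 on the log2 scale (edgeR adjusted p = 0.00488), and Smad3, a transducer of the signal, by 1.09 ± 0.12 (adjusted p = 0.00492). Both calls were made in all 9 leave-one-out fits. The co-receptor Tgfbr3 also rose (0.92 ± 0.24, adjusted p = 0.0437), and the type I receptor Tgfbr1 fell by 0.95 (adjusted p = 0.0156), a call lost without the undated control or the undated or 3 September sh902 library. The call of Tgfbr3 was made in 0 of the 9 fits. The ligand Tgfb3 was at 1.29 ± 0.40 (adjusted p = 0.0769).

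**Figure D5:**
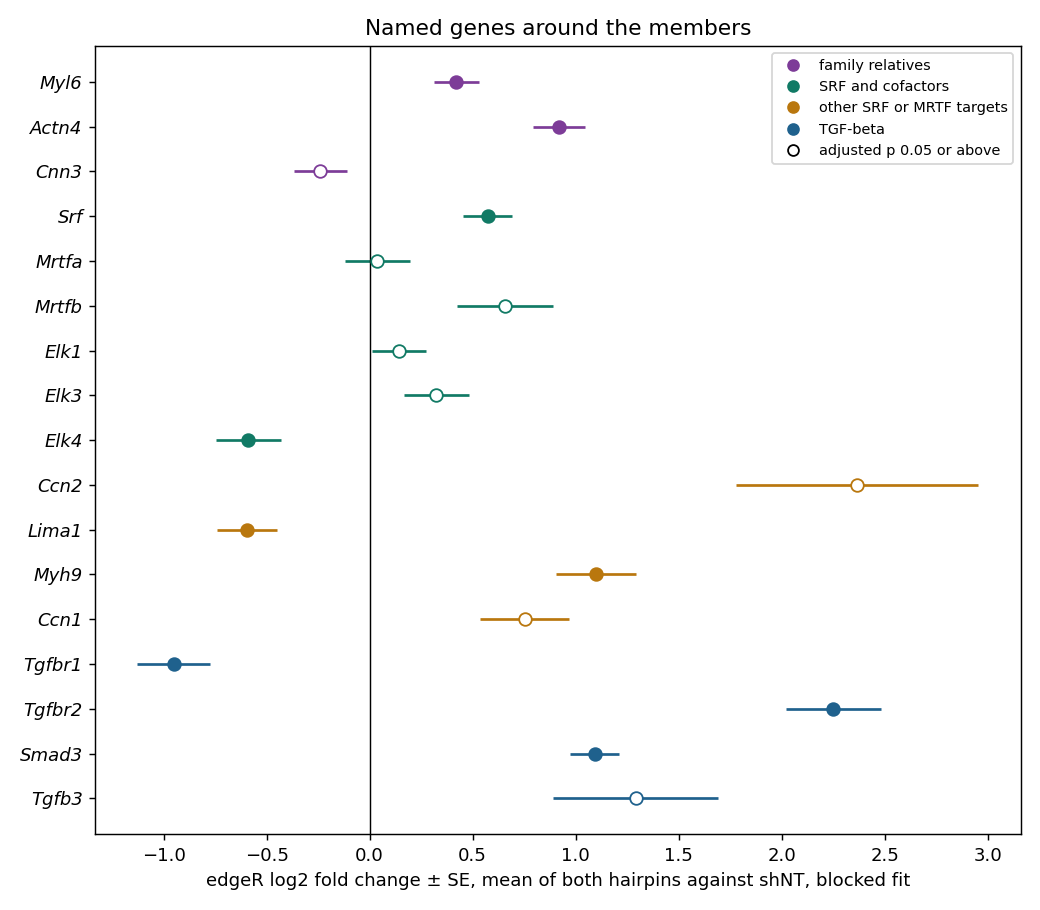
Blocked edgeR log2 fold changes with standard errors for the mean of both hairpins against shNT in the genes that the naming rule took from the other lists, coloured by list; open points did not pass an adjusted p of 0.05. Tgfbr2 lies furthest to the right among the filled points, and Actg2 is left out because it had 0 counts in the controls.

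Markers of other cell types were examined beside these results, since vessel wall cells express several of the members. Of 13 markers of smooth muscle and mural cells, 7 were under 1 CPM in every library, namely Myh11, Des, Myocd, Kcnj8, Abcc9, Anpep and Vtn. The summed level of the 13 was 188 to 330.0 CPM with shNT, 229.6 to 354 CPM with sh900 and 187 to 262 CPM with sh902, and more than any other gene it was made of Notch3, which neural stem cells also express. Smtn, a smoothelin, held 14.9, 34.2 and 2.97 CPM with shNT, 48.8, 27.4 and 10.8 CPM with sh900 and 24.5, 16.6 and 15.01 CPM with sh902, and so was also highest among the controls on 30 August. Lmod1, a leiomodin of smooth muscle, held 1.90, 1.54 and 3.12 CPM with shNT, 3.44, 1.11 and 5.68 CPM with sh900 and 0.791, 1.45 and 2.11 CPM with sh902, so that its sh900 libraries were split by label as those of Acta2 were. Its sh902 libraries each lay below the control of their label. Cspg4 held 56.3, 69.1 and 37.6 CPM with shNT, 54.2, 35.5 and 52.0 CPM with sh900 and 28.8, 26.4 and 33.0 CPM with sh902. Every sh902 library of Cspg4 lay below every control, as for 10.8% of all genes. Of the 7 measured markers of this list 3 had positive blocked values for the mean of both hairpins. Of these 7, 0 were called higher and 1 lower, beside 6.08% and 5.59% of all genes. Rgs5, a pericyte marker, ran from 1.28 to 4.53 CPM over the 9 libraries, and its blocked change was 0.55 ± 0.39 (adjusted p = 0.395). Pdgfrb, a pericyte receptor, fell by 3.37 on the log2 scale (blocked edgeR adjusted p = 0.0309) from levels of 0.839, 0 and 4.53 CPM in the controls. It is the 1 marker called lower above. Without the controls, where it was highest, it would not have passed the low-count filter. Its call is therefore not to be read beside the share of all genes. Of 6 endothelial markers 5 were under 1 CPM in every library, of 5 microglial markers 4, of 6 markers of striated muscle 4 and of 8 fibroblast and meningeal markers 1. The striated markers that were measured did not pass but had positive values, 2.81 ± 0.72 for Myh7 (adjusted p = 0.0507) and 1.13 ± 0.49 for Myh6 (adjusted p = 0.169). Myh7 held 0.365, 3.19 and 0.305 CPM with shNT, 10.9, 7.32 and 1.91 CPM with sh900 and 9.53, 8.45 and 5.47 CPM with sh902, above the control of its label in all 6 hairpin libraries, as for 12.9% of all genes. The fibroblast list summed to 42.6 to 299 CPM with shNT, 73.5 to 159.5 CPM with sh900 and 50.6 to 98.8 CPM with sh902, most of it from Pdgfra in the undated and 3 September controls. Of that list Foxc1 rose (1.26 ± 0.26, adjusted p = 0.0225) and Pdgfra fell by 1.63 on the log2 scale (adjusted p = 0.0159) in the blocked fit. Within the neural stem list Nes (1.66 ± 0.21) and Vim (0.95 ± 0.15) rose and Hes5 (-2.09 ± 0.40) fell in the blocked fit, with adjusted p of 0.00628, 0.00975 and 0.026. These were the only calls among its 10 markers, beside 6.08% of all genes higher and 5.59% lower. Of the 10 markers 3 had positive values, with a median of -0.39 beside -0.02 over all genes. With sh902 alone 2 of the 10 were positive, and 2 were called higher and 2 lower, beside 5.12% and 5.39% of all genes. The part of these shifts in the members' values was not tested.

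The genes most like the members were sought over all 9 libraries, by Pearson correlation with the mean of the members' standardised log2 CPM. The search left out the members, all genes of the other lists and of the marker lists, numbered gene models and genes of low mean CPM. Among the genes left, the highest were Ppp1r3b (r = 0.93), Ncoa3 (0.92), Pdgfb (0.92), Card10 (0.90) and Tenm3 (0.89). That mean profile was highest in the undated sh900 library (1.20 SD units), followed by the sh900 library of 3 September (0.88), and lowest in the 3 September control (-0.81). The points share libraries and date labels, so these values are a description only.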

How the data were processed

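Messenger RNA of 9 libraries was sequenced, and the deposited table holds estimated counts per gene that the authors gave as whole numbers. Per the submitters' processing notes the build was GRCm38 and the tools, listed without order or settings, included STAR 2.5.0a, RSEM, Trimmomatic 0.36, cutadapt and FastQC. The annotation release is not given in the sources used here. Of 54232 gene identifiers 54165 matched GENCODE M21, which gave symbols, positions and exon lengths. The protocol states random hexamer priming and no strand setting, so reads of overlapping genes on opposite strands (Tagln and Pcsk7, Phf2 and Phf2os1) cannot be told apart.

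The counts were tested with edgeR 4.0.16 (R 4.3.3): TMM factors, edgeR's default low-count filter on the 3 groups (17602 genes, 99.9% of counts), the quasi-likelihood test across all 9 libraries and Benjamini-Hochberg adjustment over all genes tested, with a threshold of 0.05. The contrasts were the mean of both hairpins and each hairpin against shNT, sh902 against sh900, 30 August against 3 September, and the hairpin effect between these dates. The hairpin contrasts were fitted without the date label and again with it as a replicate block. The dates are shared across groups, while the undated libraries share only the lack of a date. Deviations from the group means correlated between libraries of the same label (30 August 0.40 to 0.63, 3 September 0.46 to 0.64, undated 0.08 to 0.40) and from -0.66 to 0.30 between different labels. The undated range overlaps that between different labels. Log2 values carry a prior count of 2. Libraries of a group differed by far more than counting noise (chi-square per degree of freedom of 52.6 or more), so none was counted as a duplicate.

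On simulated counts with known changes for the mean of both hairpins (17602 genes, 100 changed 2-fold and 100 changed 4-fold) the fit without the block recovered 8% and 69%, with 1 unchanged gene among 78 called. With the block it recovered 48% and 93%, with 9 unchanged among 150 called. The simulated means carried date label effects shared by all groups, and each change was equal in every hairpin library. The spread was that estimated with the block. This setting favours the block, and it holds no gene whose hairpin effect differs by label, as that of Acta2, Tagln and Tagln2 did. The shares recovered do not apply to such genes.

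The members and gene lists were chosen with earlier results of these data known. Text names were fixed by rule: the members, Phf2, SRF and its cofactors, up to 4 genes of each other list with the smallest unadjusted p for the mean of both hairpins, and the 5 genes most like the members. Some items are not reported here, and the lists were counted without them. Genes named outside the rule were chosen after their values were seen: Tpm3, Itga5, Pdlim7, Tgfbr3, Vcl, Cald1, Tgfb1i1 and Csrp1, and Actb as the reference cytoskeletal actin. The rule also did not cover the cell type markers printed with values, which were picked from their lists with the values known. These were Smtn, Lmod1, Cspg4, Rgs5, Pdgfrb, Col3a1, Foxc1, Pdgfra, Nes, Vim, Hes5, Myh6 and Myh7. Alternatives were other scaling factors, other low-count filters, DESeq2 1.42.0, limma-voom 3.58.1, the dated libraries alone, the compared groups alone and leaving out each library. The permutation within date labels was added after the data were seen. Figures were drawn with matplotlib 3.10.9.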

Additional observations from a re-analysis of the deposited data

How the results depend on the processing

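No member passed without the block for the mean of both hairpins, sh900, sh902 or their difference under RLE factors, library sizes alone, a filter of 1 CPM in 3 libraries, limma-voom, the dated libraries alone or leaving out any library (0 to 0). DESeq2 called 1 for the mean and 1 for sh900, and dropping the low-count filter gave 1 for sh900. With the replicate block (the date label) edgeR called 1 member for the mean, 2 for sh900, 1 for sh902 and 0 for the difference. With RLE factors or library sizes these blocked counts did not change. DESeq2 with the block gave 1, 3, 1 and 2, and limma-voom with the block 2, 2, 1 and 0, where Tagln2 joined Tpm1 for the mean at 1.57 (adjusted p = 0.043). With only the compared groups in the blocked fit the counts were 1 for sh900, 0 for sh902 and 3 for the difference. In the dated libraries alone the blocked count was 0 throughout. Leaving out each library in the blocked fit gave 0 to 4 members for the mean, 0 to 5 for sh900, 0 to 4 for sh902 and 0 to 3 for the difference. The blocked fits by limma-voom, RLE factors and library sizes, and those by DESeq2 for single hairpins, were chosen after seeing the data.

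For 30 August against 3 September the 2 members called became 1 with library sizes, 0 with the 1 CPM filter, 4 with DESeq2, 4 with limma-voom, 0 in the dated libraries alone and 0 to 2 when a library was left out. For the hairpin effect between the dates, 0 became 3 without the filter, 3 with DESeq2 and 0 to 1 in the 7 fits that left out a library and could be estimated. The mean log2 fold change of Cnn2 turned positive without the 30 August control (0.28, and 0.31 with the block) and, with the block, without the 30 August sh900 library (0.046). Over all fits without the block that left out a library it ran from -0.37 to 0.28. That of Myl9 turned positive without the 30 August sh900 library (0.042, and 0.057 with the block) and, with the block, without the 30 August control (0.11), and without the block it ran from -0.33 to 0.042. The causes were not tested. Cnn1 and Tpm2 are limited by depth, at 7 to 63 and 3 to 14 counts per library.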
